A study of Homo sapiens with 6 samples.

Results

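The genes described here build, cross-link, contract or regulate the actin cytoskeleton, together with the transcription factor SRF. They were chosen by name. The 52 genes were listed by role, with earlier results of these data known. The rows of the deposited table whose Ensembl IDs carry those names in GENCODE release 29 were taken. Of the 52, 51 were among the 29908 rows of the table, 49 were abundant enough to be tested, and ACTA2, the smooth muscle actin, was not analysed here.

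Cells of 2 kinds were compared, both of them Hep3B, an established human hepatocellular carcinoma (HCC) line. Hep3B-Con cells were infected with a control lentivirus described as an empty vector. Hep3B-KD cells were infected with a lentivirus encoding a short hairpin RNA (shRNA) against DAGLA, the diacylglycerol lipase that makes the endocannabinoid 2-arachidonoylglycerol. Both were selected with puromycin, and RNA sequencing was done on 3 libraries of each, described as biological replicates. The comparison rests on 1 hairpin in 1 cell line, so an effect of the loss of DAGLA and one of the hairpin itself cannot be told apart here, nor can fewer cells of a type and less RNA per cell.

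Actin is a globular protein that polymerises into filaments. Formins, the Arp2/3 complex with its activators, and Ena/VASP proteins start or lengthen filaments, tropomyosins and cross-linkers stabilise and bundle them, and non-muscle myosin II slides them, driven by the kinases ROCK and MLCK. The pool of free actin feeds back on transcription, since monomeric actin holds the SRF cofactors of the MRTF family in the cytoplasm, and SRF binds a short A/T-rich element, the CArG box, at many cytoskeletal genes.

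The libraries held 15861039 to 17572714 reads assigned to genes. DAGLA was measured at 9.02 to 9.42 FPKM (fragments scaled to the exon length of the gene and to the size of the library) in Hep3B-Con cells and at 4.46 to 4.78 FPKM in Hep3B-KD cells, a log2 fold change of −0.99 ± 0.04 (SE; limma adjusted p = 5.25e-06). The hepatocyte markers fit the label, with all 12 measured. They summed to 3709 to 3773 FPKM in Hep3B-Con and 5840 to 5874 FPKM in Hep3B-KD cells. ALB alone had means of 2042 and 3315 FPKM. In Hep3B-KD cells 8 were higher and 3 lower (HNF4A, FGB and AHSG), against 36.1% and 23.8% of all genes tested. Of 15 smooth muscle and stellate cell markers, DES, COL3A1 and DCN had at most 3 reads in every library, and MYH11 and LMOD1 were among the 9 that stayed under 0.5 FPKM. The summed level of that list was 35.6 to 37.5 FPKM in Hep3B-Con and 17.4 to 19.4 FPKM in Hep3B-KD cells. All 5 of its tested genes were lower, and SMTN alone gave 23.6 to 23.8 and 9.76 to 11.0 FPKM of those sums. Of 9 endothelial and blood cell markers, CDH5, VWF and KDR had at most 3 reads in every library, and CD68, CD3E and HBB were not analysed here. The list summed to 2.28 to 3.39 and 3.38 to 4.38 FPKM. LYZ alone gave 2.06 to 3.13 and 3.01 to 3.99 FPKM of those sums, and it did not pass (limma adjusted p = 0.0713). The part of these marker changes in the results was not tested.

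The hairpin and the sites it could pair with are shown first. Of the 4 genes of the group that fell at least 2-fold, 3 carry such a site. The search was added after those falls were seen. The share with a site among all genes that fell at least 2-fold was not counted, so the 3 of 4 has no matching share to stand against. Of the 3, ENAH was picked by the study partly from these libraries, and MSN missed the 2-fold threshold under some settings. The hairpin's target lies in the coding part of exon 18 of 20 of DAGLA, at chr11:61740504-61740522 (GRCh38), and DAGLA was the only gene whose annotated transcripts held the whole target. The strand complementary to the target has a seed, its bases 2 to 8, which can pair with the 7-letter site GCCTTCA in other transcripts. The target is given with that site in capitals, and the complementary strand with its seed in capitals.
DAGLA target: gcgacaacaagGCCTTCAa
complementary strand: tTGAAGGCcttgttgtcgc

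In the longest annotated 3′ UTR of each gene, the site was found in 6 of 49 tested genes of the group (12.2%) and in 1627 of all genes tested (14.5% of those with a 3′ UTR of at least 50 bases). The stretches around the first site of VASP, ENAH and MSN follow, each with 10 bases on either side and the site in capitals. VASP holds it in exon 13 of 13 (chr19:45526518-45526544, plus strand), ENAH in exon 15 of 15 (chr1:225497608-225497634, minus strand) and MSN in exon 13 of 13 (chrX:65740549-65740575, plus strand).
VASP site: aacgcttaatGCCTTCAaagttttggt
ENAH site: tactctgaaaGCCTTCAgacattatga
MSN site: gggaaatggtGCCTTCAagaccttcac

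ENAH had 4 such sites in a 3′ UTR of 10940 bases, the longest of the group. The other genes with a site were DIAPH1, RDX and SRF, whose log2 fold changes were −0.01, 0.24 and 0.19. The 6 genes with a site had a median log2 fold change of −0.51 and the 43 without had −0.15, against −0.04 and 0.11 over all genes tested. ACTN1, which also fell at least 2-fold, had no site. A match is a description of letters, and the part of seed pairing in any of these changes was not tested.

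Most of the 49 tested genes differed between Hep3B-Con and Hep3B-KD cells, and more were lower than higher. With limma on log2(FPKM + 0.1) and an adjusted p under 0.05, 26 genes (53.1%) were lower and 16 (32.7%) were higher in Hep3B-KD cells, while 7 did not pass. Over all 14221 genes tested, the same threshold called 23.8% lower and 36.1% higher. Adding a fold change of at least 2 left 4 genes (8.16%) lower, namely VASP, ENAH, ACTN1 and MSN, and 1 (2.04%) higher, WASL. Over all genes the shares were 2.94% lower and 5.89% higher. Of the 4, ENAH was picked by the study partly from these libraries, and MSN lies at the edge of the threshold. The 3 knockdown values were all under the 3 control values in 26 genes and all over them in 16, which was so for 26.3% and 40.7% of all genes tested. The p-values measure the spread between these libraries, which may be technical.

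**Figure D1:**
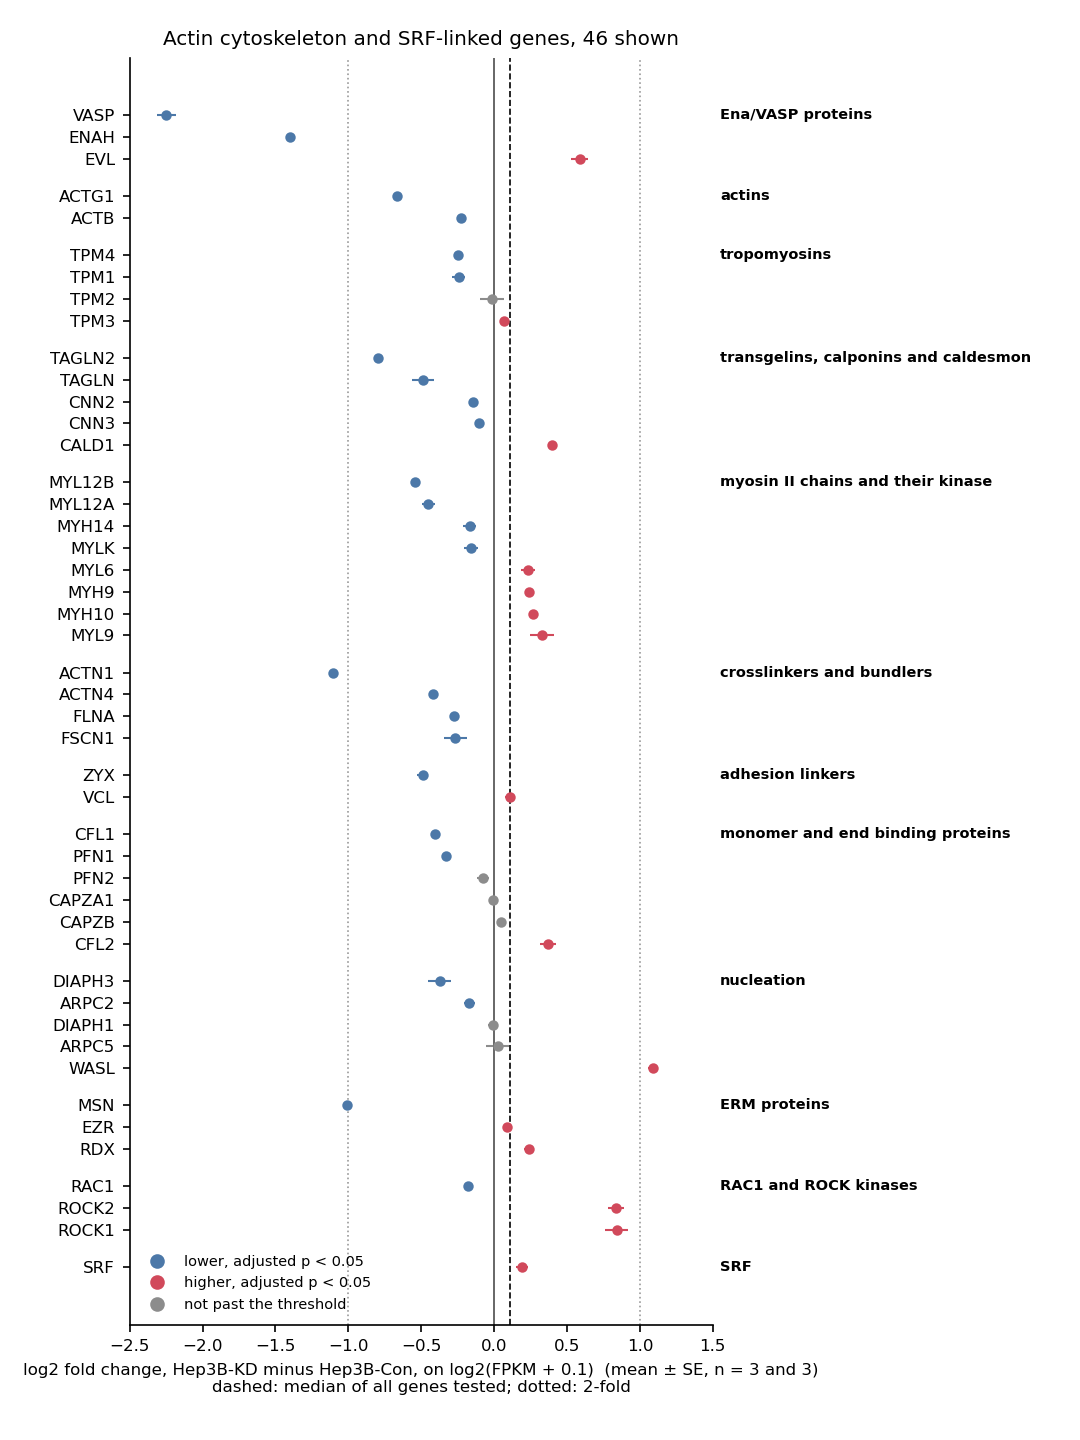
Log2 fold change (Hep3B-KD minus Hep3B-Con, x axis, on log2(FPKM + 0.1), point and SE, 3 libraries each) of tested genes, grouped by role on the y axis and coloured by the limma call, for 46 of the 49 tested genes. The points run from −2.25 for VASP to 1.09 for WASL, and the median of all genes tested (dashed) stands at 0.11, to the right of most points.

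The median log2 fold change was −0.15 over the group and 0.11 over all genes tested. More genes of the group were lower than higher under each of the 3 other scalings run, and the size of that excess changed with the scaling. When each library was centred on its median log ratio, 30 genes were lower and 11 higher (73.2% of those called were lower, compared with 61.9% as deposited), and the medians were −0.25 for the group and 0.01 for all genes. The same centring called 30.3% of all genes lower and 28.6% higher. With quantile normalization 21 were lower and 19 higher (52.5% of those called were lower), and the medians were −0.06 and 0.01. Over all genes quantile normalization called 27.4% lower and 30.03% higher, so that 47.7% of those called were lower, close to the share in the group. With libraries rescaled to the same sum, 25 genes of the group were lower and 16 higher. That rescaling called 22.2% of all genes lower and 37.98% higher.

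The level of expression moved with the calls as well. The genes of the group had a median level of 31.9 FPKM, compared with 4.92 FPKM over all genes tested. Of all 4553 genes whose mean was at least 10 FPKM, 41.4% were lower and 34.5% higher, whereas of 9668 genes under 10 FPKM 15.5% were lower and 36.8% higher. Of the group's 41 genes at 10 FPKM or more, 23 (56.1%) were lower and 12 (29.3%) higher. Among genes of at least 100 FPKM, 63.2% of all 299 and 10 of the group's 13 were lower. The excess of lower calls in the group was smaller against genes of like level than against the whole table.

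**Figure D2:**
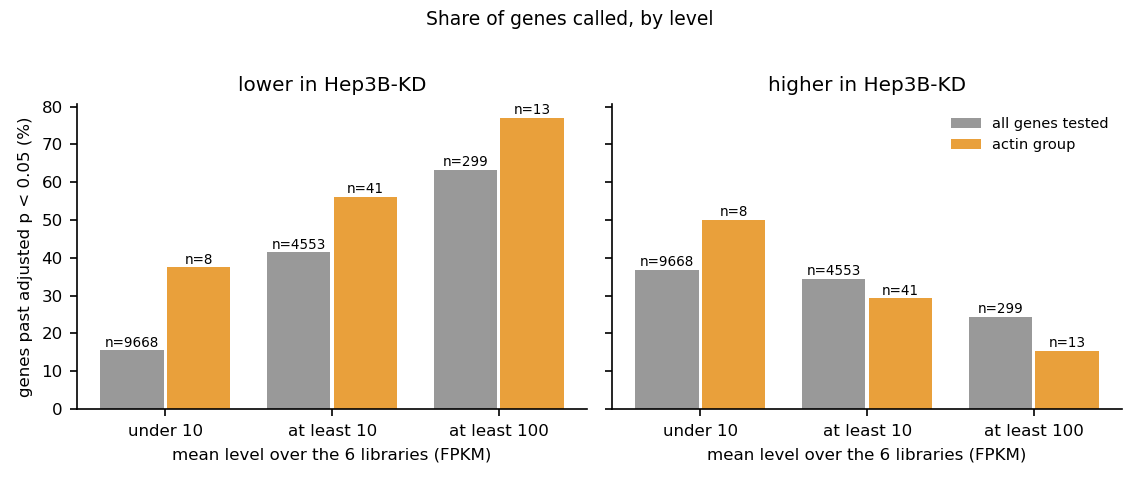
Share of genes past an adjusted p of 0.05 (y axis, %) that were lower (left) or higher (right) in Hep3B-KD cells, by mean level in FPKM (x axis), for all genes tested (grey) and the actin group (orange), with the number of genes above each bar. The grey bars for lower calls climb from 15.5% under 10 FPKM to 63.2% at 100 FPKM or more, and the orange bars climb with them.

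The Ena/VASP proteins, which bind the growing ends of filaments and keep capping proteins away from them, held the largest falls of the group. VASP (ENSG00000125753, chr19:45506579-45526983, GRCh38, plus strand) was measured at 39.4, 34.1 and 35.45 FPKM in the Hep3B-Con libraries and at 7.79, 7.02 and 7.88 FPKM in the Hep3B-KD libraries. All 3 knockdown libraries lay far under the lowest control library. The log2 fold change was −2.25 ± 0.07 (SE), a 4.75-fold fall (limma adjusted p = 1.25e-06), and behind the values stood 406 to 2494 reads per library.

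ENAH (ENSG00000154380, chr1:225486835-225653142, minus strand), the family member also known as Mena and linked to the motility of tumour cells, was at 51.9, 53.05 and 52.3 FPKM in Hep3B-Con and at 20.04, 19.5 and 19.9 FPKM in Hep3B-KD libraries. The groups did not overlap, and the spread within each was small beside the gap. The log2 fold change was −1.40 ± 0.02 (SE; limma adjusted p = 1.25e-07). ENAH is one of the genes that the study picked partly from these libraries, so its fall is not independent evidence of a direction.

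EVL, the remaining member, went the other way. It was at 2.81, 2.87 and 3.05 FPKM in Hep3B-Con and at 4.32, 4.37 and 4.57 FPKM in Hep3B-KD libraries (log2 fold change 0.59 ± 0.06 SE; limma adjusted p = 0.000149). Summed over the family, the level went from 91.6 ± 2.20 to 31.8 ± 0.83 FPKM (SD, n = 3). Within the family, the share of VASP went from 39.6% to 23.8%, that of ENAH from 57.2% to 62.3% and that of EVL from 3.18% to 13.9%. In each of these shares the groups did not overlap, and the two-sided exact permutation p was 0.1, the smallest that 3 libraries against 3 can give. Such shares do not change when all values of a library are multiplied by a common factor. Quantile normalization applies no common factor and can change them. The shares compare genes per length of all annotated exons.

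**Figure D3:**
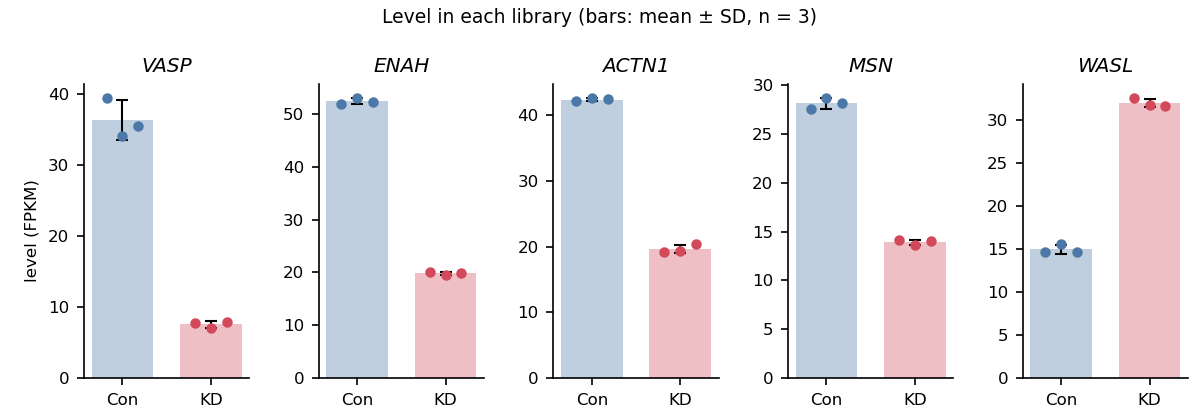
Level in FPKM (y axis, a separate scale from 0 for each gene) of the 5 genes that changed at least 2-fold, in each Hep3B-Con (Con, blue) and Hep3B-KD (KD, red) library, with the mean ± SD of 3 libraries as bars. VASP, ENAH, ACTN1 and MSN sat lower in every Hep3B-KD library, and WASL sat higher, with no overlap.

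Both cytoplasmic actins that were tested were lower, ACTG1 more than ACTB. ACTG1, gamma-actin, was at 1502, 1526 and 1517 FPKM in Hep3B-Con and at 955, 948 and 964 FPKM in Hep3B-KD libraries, a log2 fold change of −0.66 ± 0.01 (SE; limma adjusted p = 1.78e-07). ACTB, beta-actin, was at 2245, 2306 and 2268 FPKM and then at 1927, 1958 and 1947 FPKM, a log2 fold change of −0.23 ± 0.01 (SE; limma adjusted p = 1.75e-05), or −0.43 with quantile normalization. With quantile normalization ACTG1 had −0.51, so its gap to ACTB was much smaller than in the deposited values. The libraries of each gene did not overlap between groups. In the deposited FPKM, the share of ACTB in their summed level rose from 60.0% to 67.0%, again with p = 0.1 by the exact permutation test. ACTB is widely used, in this study too, as the reference gene of quantitative PCR. The coding sequences of the pair are nearly the same and have many pseudogenes, so reads may have been split between them.

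**Figure D4:**
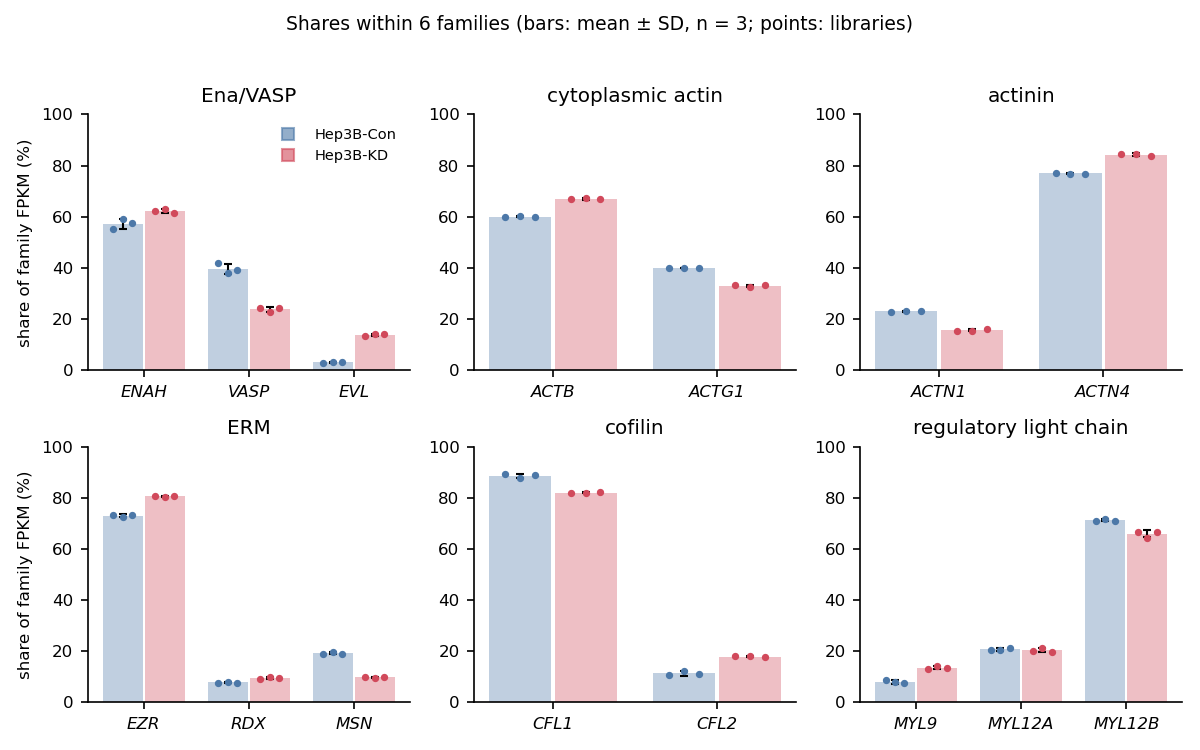
Share of each gene in the summed FPKM of its family (y axis, %, from 0 to 100) in 6 families, in Hep3B-Con (blue) and Hep3B-KD (red) libraries, with points for libraries and bars for the mean ± SD of 3. VASP went from 39.6% to 23.8% of the Ena/VASP sum, MSN from 19.2% to 9.85% of the ERM sum and ACTN1 from 23.1% to 15.7% of the actinin sum.

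All 4 cross-linkers and bundlers were lower in Hep3B-KD cells, FSCN1 with a call that was lost under several settings. ACTN1 (ENSG00000072110, chr14:68874143-68979440, minus strand), the alpha-actinin of stress fibres and adhesions, was at 42.2, 42.6 and 42.5 FPKM in Hep3B-Con and at 19.2, 19.3 and 20.4 FPKM in Hep3B-KD libraries. The 2 sets were far apart beside their spread, with a log2 fold change of −1.11 ± 0.03 (SE; limma adjusted p = 7.04e-07). ACTN4, the more abundant actinin here, had a log2 fold change of −0.42, with 142 ± 0.81 and 106 ± 0.12 FPKM (SD, n = 3), and −0.24 with quantile normalization. ACTN1 thus went from 23.1% to 15.7% of the actinin sum. FLNA, filamin A, which links filaments at right angles and to integrins, had a log2 fold change of −0.27, and −0.09 with quantile normalization. FSCN1, fascin, which packs filaments into the spikes of migrating cells, also had −0.27, but its control libraries were spread (82.3 ± 8.35 FPKM, SD, n = 3). Its call was lost without Hep3B-KD replicate 1 (log2 fold change −0.22), with quantile normalization (−0.13, limma adjusted p = 0.126), with the replicate number as a block (limma adjusted p = 0.0625) and without the low-level filter (limma adjusted p = 0.0503).

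The proteins at adhesions and under the membrane gave mixed results. ZYX, zyxin, an adhesion protein that recruits Ena/VASP proteins, went from 71.0 ± 3.01 to 50.5 ± 1.86 FPKM (SD, n = 3), a log2 fold change of −0.49. VCL, vinculin, which ties adhesions to actin, had a log2 fold change of 0.11, equal to the median of all genes. With libraries centred on the median log ratio this became 0.01 and the call was lost, as it was without Hep3B-Con replicate 1 or 3 (0.09 and 0.10) and without Hep3B-KD replicate 2 or 3 (0.10 and 0.11).

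The ERM proteins tether filaments to the plasma membrane, and only MSN among these 3 was lower. MSN, moesin (ENSG00000147065, chrX:65588377-65741931, plus strand), was at 27.6, 28.7 and 28.2 FPKM in Hep3B-Con and at 14.1, 13.6 and 14.0 FPKM in Hep3B-KD libraries. The groups were well separated, with a log2 fold change of −1.01 ± 0.03 (SE; limma adjusted p = 9.25e-07). That value lies at the edge of the 2-fold threshold, which it missed without Hep3B-Con replicate 2 (−0.9958) and without Hep3B-KD replicate 2 (−0.9947), with quantile normalization (−0.98), with rescaling to the same sum (−0.98) and with a pseudocount of 1 (−0.97). RDX, radixin, had a log2 fold change of 0.24, with 0.13 on centring. EZR, ezrin, the ERM protein of epithelia, had 0.09, which turned to −0.02 with libraries centred on the median log ratio and was 0.27 with quantile normalization. Its call was lost on centring and with eBayes run without the trend. The share of MSN in the ERM sum went from 19.2% to 9.85% and that of EZR from 73.0% to 80.6%, each with p = 0.1 by the exact permutation test.

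Tropomyosins, which run along the groove of the filament, changed little. TPM1 and TPM4 had log2 fold changes of −0.24 and −0.25, and TPM4 had −0.13 with quantile normalization. TPM3 had 0.07, which turned to −0.04 with libraries centred on the median log ratio and was 0.23 with quantile normalization. Its call was lost with the replicate block (limma adjusted p = 0.0515), with no filter, with eBayes run without the trend and without Hep3B-Con replicate 1 or 3 or Hep3B-KD replicate 1 or 3 (0.05 to 0.07). TPM2 was at 2.73 ± 0.17 and 2.70 ± 0.21 FPKM (SD, n = 3) and did not pass (limma adjusted p = 0.871), with a log2 fold change of −0.02 that became 0.01 with libraries rescaled to the same sum, −0.12 on centring and −0.23 with quantile normalization (limma adjusted p = 0.0523). TPM1 shares 21.4% of its exon bases with antisense transcripts, and the counting is not stated to have used strand. TAGLN, MYL6, ACTN4, VCL, CFL1 and CAPZA1 share 11.1% to 19.03% of theirs with other genes, nearly all on the opposite strand.

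Among the smaller proteins that bind along filaments, TAGLN2 fell most. TAGLN2, transgelin-2, a filament-gelling protein found outside muscle, was at 212, 215 and 224 FPKM in Hep3B-Con and at 126, 125 and 124 FPKM in Hep3B-KD libraries (log2 fold change −0.80 ± 0.02 SE; limma adjusted p = 1.01e-06). The groups did not overlap. TAGLN, the smooth muscle transgelin and a textbook SRF target, had a log2 fold change of −0.49 at a low level of 4.32 ± 0.19 FPKM in Hep3B-Con cells (SD, n = 3).

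CNN2 and CNN3, calponins that damp myosin activity, had log2 fold changes of −0.15 and −0.10, which became 0.05 and 0.04 with quantile normalization, where neither passed, and −0.25 and −0.21 on centring. CNN1, the calponin of smooth muscle, had 0 to 12 reads per library and was not tested. CALD1, caldesmon, which competes with myosin for filaments, was higher, going from 19.9 ± 0.52 to 26.3 ± 0.25 FPKM (SD, n = 3), a log2 fold change of 0.40.

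The chains of non-muscle myosin II split by kind. MYH9 and MYH10, the heavy chains of myosins IIA and IIB, had log2 fold changes of 0.24 and 0.26, while MYH14, that of IIC, had −0.17. On centring these were 0.14, 0.16 and −0.27. The summed level of the 3 heavy chains was 115 ± 2.06 FPKM in Hep3B-Con and 132 ± 1.99 FPKM in Hep3B-KD cells (SD, n = 3; exact permutation p = 0.1).

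The regulatory light chains, whose phosphorylation switches the motor on, summed to 177 ± 2.19 and 131 ± 3.0 FPKM (SD, n = 3; exact permutation p = 0.1). MYL12B, which made up 71.2% of that sum in Hep3B-Con cells, had a log2 fold change of −0.54. Its neighbour and near-identical copy MYL12A had −0.45, and reads may have been split between them. MYL9, the regulatory chain also found in smooth muscle, had 0.33, so its share went from 8.04% to 13.6%. MYL6, the essential light chain, had 0.23, a call that was lost with libraries centred on the median log ratio (0.13). MYLK, the kinase MLCK that phosphorylates these chains, had −0.16, and its call was lost without Hep3B-Con replicate 2 or 3 or Hep3B-KD replicate 2 or 3 (−0.14 to −0.17), with the replicate block (limma adjusted p = 0.0638) and with rescaling to the same sum (−0.14). It was −0.27 on centring and −0.32 with quantile normalization, past the threshold in both.

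The other kinases of the regulatory light chain, ROCK1 and ROCK2, were both higher. ROCK1 was at 2.31, 2.60 and 2.18 FPKM in Hep3B-Con and at 4.14, 4.46 and 4.32 FPKM in Hep3B-KD libraries, a log2 fold change of 0.84 ± 0.08 (SE; limma adjusted p = 0.000125). ROCK2 was at 3.18, 3.19 and 2.92 FPKM and then at 5.75, 5.44 and 5.62 FPKM, a log2 fold change of 0.84 ± 0.06 (SE; limma adjusted p = 2.74e-05). Neither gene had overlapping groups. The split between them was 43.3% and 43.5% ROCK1, with overlapping libraries (exact permutation p = 0.9).

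RAC1, which drives lamellipodia, had a log2 fold change of −0.18, which became −0.28 on centring and 0.03 with quantile normalization, where it did not pass.

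CDC42, which drives filopodia, is listed at 2 to 6 reads per library and was not tested. Of its exon bases, 59.4% are shared with other annotated genes, so that its listed level may not be its expression.

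Nucleation held the one gene that rose at least 2-fold. WASL, N-WASP (ENSG00000106299, chr7:123681935-123749067, minus strand), which passes the signal of CDC42 on to the Arp2/3 complex, was at 14.7, 15.5 and 14.7 FPKM in Hep3B-Con and at 32.5, 31.7 and 31.6 FPKM in Hep3B-KD libraries. Every knockdown library lay above every control library. The log2 fold change was 1.09 ± 0.03 (SE; limma adjusted p = 1.07e-06). With libraries centred on the median log ratio it was 0.99, under the 2-fold threshold.

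Of the 2 Arp2/3 subunits in the group, ARPC2 had −0.17, with −0.27 on centring, and its call was lost with quantile normalization (−0.06, limma adjusted p = 0.169). ARPC5 did not pass (log2 fold change 0.02, limma adjusted p = 0.815), with −0.08 on centring, although it did without Hep3B-Con replicate 2 (0.12). Of the 2 formins, DIAPH3 had −0.37 at 2.42 ± 0.12 FPKM in Hep3B-Con cells (SD, n = 3), and −0.61 with quantile normalization. DIAPH1, the formin mDia1, did not pass (log2 fold change −0.01, limma adjusted p = 0.822), and turned to 0.06 with quantile normalization and 0.02 with libraries rescaled to the same sum. On centring it was −0.11 and passed (limma adjusted p = 0.0272).

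Among proteins that bind monomers or filament ends, the cofilins moved in opposite directions. CFL1, cofilin-1, which severs filaments, had a log2 fold change of −0.40, and CFL2, its muscle-type relative, had 0.37, so the share of CFL2 went from 11.4% to 17.96% (exact permutation p = 0.1). With quantile normalization CFL1 had −0.24. PFN1, profilin-1, which feeds actin monomers to formins and Ena/VASP proteins, had −0.33, from 269 ± 5.84 to 214 ± 2.89 FPKM (SD, n = 3), and −0.17 with quantile normalization. PFN2 did not pass (log2 fold change −0.08, limma adjusted p = 0.147), but did on centring (−0.18, limma adjusted p = 0.00744). Neither subunit of capping protein passed. CAPZA1 had −0.01 (limma adjusted p = 0.744), and 0.02 with rescaling. It passed in opposite directions on centring (−0.11, limma adjusted p = 0.00318) and with quantile normalization (0.10, limma adjusted p = 0.00625). CAPZB had 0.05 (limma adjusted p = 0.216), and −0.06 on centring. It passed with quantile normalization (0.18, limma adjusted p = 0.00453) and without Hep3B-KD replicate 2 (0.08, limma adjusted p = 0.0278).

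SRF itself was at 13.1, 13.3 and 13.8 FPKM in Hep3B-Con and at 15.0, 15.9 and 15.0 FPKM in Hep3B-KD libraries. The groups did not overlap, with a log2 fold change of 0.19 ± 0.04 (SE; limma adjusted p = 0.00515), a call that was lost with libraries centred on the median log ratio (0.09). Its cofactors, from the lists of other pathway genes, went opposite ways. MRTFA had a log2 fold change of −0.40, from 17.5 ± 0.59 to 13.3 ± 0.34 FPKM, and MRTFB had 1.07, from 2.60 ± 0.11 to 5.55 ± 0.09 FPKM (SD, n = 3).

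The promoters of the group were searched for the CArG box because SRF binds it. RefSeq promoters (GRCh38.p14, 250 bases before to 50 after each annotated start) matched 46 of the 52 genes, some with several starts. A CArG box, whose pattern fits both strands alike although the letters of a given box may not, was found in 8 of the 46 (17.4%). It was found in 438 of all 27305 genes with a promoter (1.60%). The sequences follow, each 30 bases 5′ to 3′ on the strand of the gene with the box in capitals, for ACTG1 (chr17:81512874-81512903), TPM4 (chr19:16067355-16067384), CNN2 (chr19:1026509-1026538), MYLK (chr3:123620623-123620652), ACTN1 (chr14:68977718-68977747), FLNA (chrX:154374709-154374738), ROCK2 (chr2:11345491-11345520) and SRF, which had 2 boxes (chr6:43171229-43171258 and chr6:43171249-43171278). The start used for MYLK lies inside the gene, far from its upstream end, and was the only MYLK start searched. The promoter at the upstream end of MYLK was thus not examined, and its fold change is that of the whole gene.
ACTG1: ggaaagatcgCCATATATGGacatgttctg
TPM4: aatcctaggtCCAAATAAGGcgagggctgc
CNN2: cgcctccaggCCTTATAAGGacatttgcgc
MYLK: ataaaccatcCCTTTTATGGgagttgaagc
ACTN1: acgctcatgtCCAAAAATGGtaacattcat
FLNA: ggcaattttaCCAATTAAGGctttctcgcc
ROCK2: aaatgtacttCCTTAAATGGgtttactggg
SRF upstream box: ctggggctcaCCATATAAGGagcggcctcg
SRF downstream box: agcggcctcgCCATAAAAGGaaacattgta

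Of these 8 genes, ACTG1, TPM4, CNN2, MYLK, ACTN1 and FLNA were lower, and ROCK2 and SRF were higher in Hep3B-KD cells. Their median log2 fold change was −0.21, compared with −0.02 in the 35 tested genes whose promoters held no box. These medians are of the deposited values, and were not taken under the other scalings. The calls of CNN2, MYLK and SRF were each lost under some setting. ACTG1, FLNA and CNN2 had means above 100 FPKM, where 63.2% of all genes were lower and 24.4% higher. Of those 35, 20 had values below 0 and 15 above. Over all genes tested with a promoter, the medians were 0.06 with a box and 0.09 without, and of the 137 with a box 64 had values below 0 and 73 above. Many genes were listed here as SRF-linked, and that choice can by itself give a larger share with the box than in the table as a whole. The 6 genes without a promoter in the RefSeq table were ACTB, TAGLN, MYL9, FSCN1, PFN2 and RAC1. No match says only that the letters are not in that window.

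**Figure D5:**
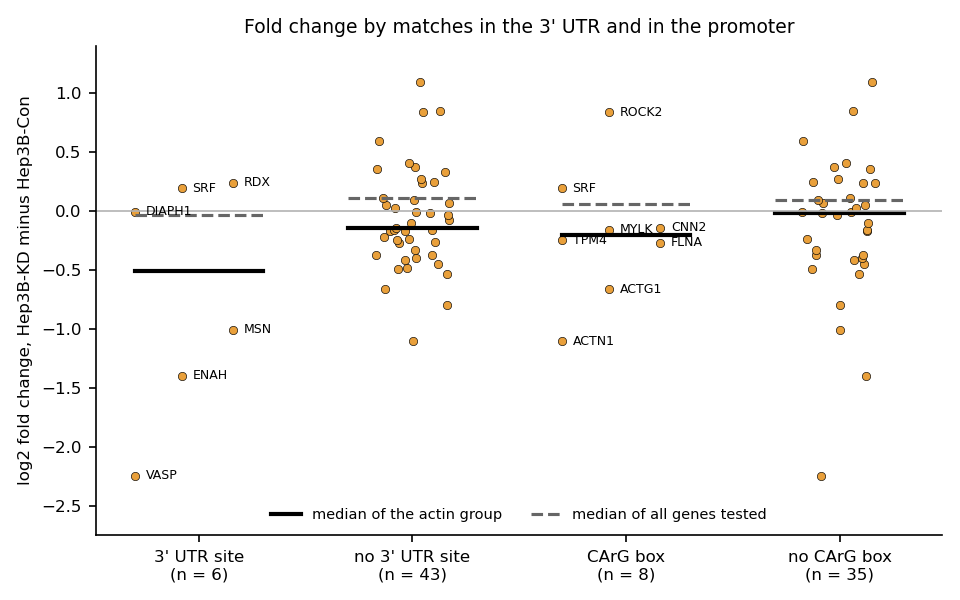
Log2 fold change (Hep3B-KD minus Hep3B-Con, y axis) of each tested gene of the group, split by a match to the hairpin's seed in the 3′ UTR (6 and 43 genes) and by a CArG box in the promoter (8 and 35 genes), with medians of the group (solid) and of all genes tested (dashed). VASP, ENAH and MSN stand low among the genes with a 3′ UTR site, and the genes with a CArG box run from −1.11 for ACTN1 to 0.84 for ROCK2.

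The remaining genes of actin assembly, contraction and its regulation were described from 6 further lists of 135 genes, of which 109 were tested. Of these, 35 (32.1%) were lower and 45 (41.3%) higher at an adjusted p under 0.05, and their median log2 fold change was 0.01. The shares over all genes tested were 23.8% and 36.1%. The share of higher genes was thus near that of the table, and the share of lower genes was above it. Fold changes of at least 2 were found in 5 lower genes (4.59%) and 4 higher genes (3.67%), against 2.94% and 5.89% of all genes. The counts of single lists stand against the same shares.

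EGR1 and JUNB, immediate-early genes that serum and growth factors induce, were among the genes that fell at least 2-fold. EGR1 was at 17.8, 14.6 and 14.8 FPKM in Hep3B-Con and at 2.85, 2.26 and 3.17 FPKM in Hep3B-KD libraries, a log2 fold change of −2.48 ± 0.13 (SE; limma adjusted p = 1.14e-05). JUNB was at 96.9, 68.3 and 72.8 FPKM and then at 24.9, 35.8 and 25.4 FPKM, a log2 fold change of −1.47 ± 0.18 (SE; limma adjusted p = 0.000467). Neither gene had overlapping groups, although JUNB was the more spread. ELK3, one of the ternary complex factors that bind DNA together with SRF, had −1.04. In all, 7 of the 12 tested SRF cofactors and SRF-linked genes were lower (58.3%) and 5 higher (41.7%).

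CAP1, which recycles actin monomers together with cofilin, went from 45.6 ± 1.58 to 11.6 ± 0.13 FPKM (SD, n = 3), a log2 fold change of −1.97. TWF1, twinfilin-1, which binds monomers and ends, had 1.12. They belonged to a list of other actins and actin-binding proteins with 11 of 31 tested genes lower (35.5%) and 13 higher (41.9%).

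SMTN, smoothelin, had a log2 fold change of −1.17 among other contractility genes, of which 5 of 21 were lower (23.8%) and 12 higher (57.1%). WASF1, a WAVE protein that activates Arp2/3 downstream of RAC1, had 1.13 in a list with 5 of 17 tested genes lower (29.4%) and 6 higher (35.3%). Of 7 further formins tested, 1 passed limma's adjusted threshold, and it was higher.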

How the data were processed

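RNA sequencing of Hep3B-Con and Hep3B-KD cells was analysed, 3 libraries each, with groups and replicate numbers from the sample labels. The deposited table holds FPKM values that the authors computed per gene and library. The submitters' processing notes name TopHat2 2.0.12, Bowtie2 2.0.6 and GRCh37; the counter is not given in the sources used here. With exon lengths of GENCODE 29 (GRCh38), 100% of the values corresponded to whole reads within 0.01 read, summing to 15861039 to 17572714 reads per library. Gene and site coordinates are those of GENCODE 29 on GRCh38. The recovered reads served the voom alternative, the read counts given in the text, the floor of 3 reads and the simulated data. All other fits used FPKM, the deposited unit. Limits at 3 reads cover counting error only.

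After a filter at a mean of 0.5 FPKM, which 14221 genes passed, log2(FPKM + 0.1) was fitted with limma 3.58.1 in R 4.3.3 (lmFit, eBayes with trend, Benjamini-Hochberg over all genes tested). A fold change is on that scale and understates changes of low genes. Family shares were tested by two-sided exact permutation in scipy 1.17.1. The step was tested on simulated data. Alternatives were other filters, pseudocounts, scalings, eBayes without the trend, voom, a replicate block and each library left out. All 52 listed genes could be named, with DAGLA, MRTFA, MRTFB and the 5 largest falls and rises past 2-fold among other pathway genes. Members and lists were chosen with earlier results of these data known. A few values are not reported here, namely those of 3 tested genes of the group and of 1 pathway gene past 2-fold. The family shares, the split by level and the sequence searches were added after the values were seen.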

Additional observations from a re-analysis of the deposited data

How the results depend on the processing

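Over 16 alternative settings and 55 named genes, 829 of 880 values kept their direction and their side of the threshold. Another 26 kept their direction but lost their call, 6 kept it and gained a call, and 19 changed sign. Some of those that changed sign also lost a call, such as EZR on centring, and CAPZA1 gained a call with quantile normalization. Centring on the median log ratio left 0 genes of the group at least 2-fold higher, since WASL was then at 0.99. The other pathway genes at least 2-fold higher numbered 7 without a filter, 2 with a pseudocount of 1 and 2 with quantile normalization. Signs changed on centring for TPM3 (−0.0376), CAPZB (−0.056), ARPC5 (−0.0794) and EZR (−0.0162). They changed with quantile normalization for CNN2 (0.0483), CNN3 (0.0354), CAPZA1 (0.10), DIAPH1 (0.0645) and RAC1 (0.0313), and with rescaling to the same FPKM sum for TPM2 (0.0087), CAPZA1 (0.0182) and DIAPH1 (0.017). Leaving out 1 library at a time gave both signs for ARPC5 (−0.0347 to 0.1209), DIAPH1 (−0.037 to 0.0071) and TPM2 (−0.0709 to 0.0346), none of which passed with all libraries, although ARPC5 did without Hep3B-Con replicate 2. With each library left out in turn, the group had 25 to 27 lower and 14 to 17 higher genes, and 3 to 4 and 1 to 1 past 2-fold. The other pathway genes had 33 to 36 lower and 43 to 44 higher, with 4 to 5 and 4 to 5 past 2-fold, and DAGLA ranged from −1.02 to −0.97. The cause of these changes was not tested. The replicate numbers gave no sign of pairing. Deviations of same-numbered libraries correlated at −0.01, −0.07 and −0.0011, and no library correlated best with its own number. With 3 libraries per group, such values cannot exclude that the libraries were made in pairs. With the replicate number as a block, the group had 24 lower and 15 higher genes, with the calls of TPM3, MYLK and FSCN1 lost. Precision is limited by the 3 libraries per group and by 15861039 reads in the smallest.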
